A study of Mus musculus with 4 samples.

Results

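The myogenic regulators described here are 7 transcription factor genes: Pax7, Pax3, Myf5, Myod1, Myog, Myf6 and Mef2c. They were taken by symbol from the platform annotation, which gave each of them at least 1 probe set with exactly 1 gene symbol. Of 22180 genes with such a probe set these are 7, all of them measured. Mef2c had 2 probe sets and the one with the higher mean was used, while the remaining 6 genes had 1 each. The samples were Achilles and plantaris tendons of C57Bl/6 mice aged 4 months, wild-type animals without treatment, with 2 arrays from males and 2 from females. The tendons of an animal were combined, so RNA of every cell type in the excised tissue entered the array, although tenocytes are the labelled cell type. The labels give 3 RNA wells per sample and do not say whether the arrays of a sex came from separate animals, so the spread between arrays may be technical. Levels are log2 values from RMA, a method that corrects, normalises and summarises array signals.

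Pax7 and Pax3 are paired-box factors. Pax7 marks satellite cells, the stem cells that lie between the muscle fibre and its basal lamina, and Pax3 acts in the muscle progenitors of the embryo. Myf5 and Myod1 commit cells to the muscle lineage, Myog drives the differentiation of myoblasts, and Myf6 (also called Mrf4) is the member of that helix-loop-helix family that prevails in adult fibres. These 4 factors pair with E proteins and bind the E-box. Mef2c binds an AT-rich motif beside them, and is also known from endothelial, myeloid, neural and cartilage cells. Muscle fibres end on tendon, at the myotendinous junction.

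The motifs read by these factors are shown in the 250 bases upstream of the start of Myog, which is both a member and a known target of the family, and of Myh4, the myosin heavy chain gene of the fastest fibres. Myh4 was chosen after its values were seen. Sequences are from RefSeq on GRCm38.p6, and the deposited table itself carries no coordinates. The Myog window lies at chr1:134289754-134290003 on the plus strand and the Myh4 window at chr11:67237562-67237811 on the plus strand. Capitals mark each E-box, spelled CANNTG and read alike on both strands, and in Myh4 also a match to the 10-base MEF2 consensus.
Myog: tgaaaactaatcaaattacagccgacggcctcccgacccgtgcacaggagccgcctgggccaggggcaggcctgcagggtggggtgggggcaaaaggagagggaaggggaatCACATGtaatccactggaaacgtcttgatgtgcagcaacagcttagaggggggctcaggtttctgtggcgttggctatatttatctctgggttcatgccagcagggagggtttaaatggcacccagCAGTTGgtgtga
Myh4: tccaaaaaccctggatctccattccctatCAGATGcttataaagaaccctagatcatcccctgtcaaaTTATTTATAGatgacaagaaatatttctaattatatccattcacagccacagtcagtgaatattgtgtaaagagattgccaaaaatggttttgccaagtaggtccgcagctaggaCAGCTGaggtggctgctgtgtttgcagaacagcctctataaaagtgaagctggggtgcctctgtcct

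In Myog the E-boxes begin 138 and 12 bases before the start. In Myh4 they begin 221 and 67 bases before it, and the MEF2 consensus begins at 182, with no overlap between motifs. An E-box was found in 66.2% of all 32851 upstream windows of this length and the MEF2 consensus in 2.92%, so the E-box is common at this length. RefSeq windows were matched for 4 of the 7 members (Pax7, Myf5, Myog and Mef2c), and Myog and Mef2c held an E-box in at least 1 window. The MEF2 consensus was matched in 0 of these 4 genes. In the Myog window the unmarked stretch ctatatttat differs from that consensus at its last base only. A missing match therefore does not mean that a MEF2 site is absent. Among 24 adult myofibre genes with a window, 21 held an E-box and 4 the MEF2 consensus in at least 1 window. The shares over all windows are per window and not per gene. Counted that way, 25 of 29 myofibre windows held an E-box and 4 the MEF2 consensus. Of 6 member windows 3 held an E-box and 0 the MEF2 consensus. These matches are letters in a window and not measured binding sites. In the RefSeq gene table Myf5 and Myf6 are direct neighbours on chromosome 10.

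As a check of the labels, Xist, the RNA that silences an X chromosome in females, was at 2.47 and 1.98 in the male arrays and 7.34 and 8.04 in the females. The Y-linked gene Eif2s3y was at 4.46 and 4.96 in the males and 2.86 and 1.65 in the females.

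Levels were set against 2 references on each array. The first was the median of all rows, which lay between 2.27 and 2.30. The second was the 95th percentile of 1108 probe sets of olfactory receptor genes, a family of the nasal epithelium, which lay between 2.71 and 2.90. Of the 7 members, 5 lay above the array's median on all 4 arrays, where 47.5% of the 23521 probe sets with 1 symbol did. Mef2c, Myf6 and Myod1 lay above the olfactory reference on all 4 arrays, as 31.8% of those probe sets did. The Y-linked gene Eif2s3y, at 2.86 in female 1, lay above that array's median (2.27) and olfactory reference (2.71). In female 2, at 1.65, it was below both. A value slightly above either reference therefore does not by itself show that a gene is expressed. Probe sets differ in their response, so no member's level is ranked against that of another. In bulk tissue, fewer cells of a type and less RNA per cell cannot be told apart.

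Pax7 was at 3.08 in male 1, 2.70 in male 2, 2.99 in female 1 and 3.08 in female 2. All 4 values were above the array medians, by 0.41 to 0.81, and 3 of 4 were above the olfactory reference, with male 2 below, at -0.13 relative to it. Between 93.6% and 97.1% of olfactory receptor probe sets had a lower value. Pax3 was at 2.09, 2.21, 2.17 and 2.37 in the same order of arrays. Only female 2 was above its median, by 0.10, and the arrays of the sexes overlapped. The range of Pax3 over the arrays was 0.28, and between 80.7% and 90.3% of olfactory receptor probe sets had a lower value.

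Myf5, the earlier of the commitment factors in the embryo, was at 2.20, 1.99, 2.14 and 2.18 in male 1, male 2, female 1 and female 2. It was the 1 member below the median on every array. Myod1, which can turn fibroblasts into muscle cells, was at 3.89, 4.47, 4.13 and 3.39. It exceeded the array medians by 1.12 to 2.18 and the olfactory reference by 0.67 to 1.64. Male 2 was the highest array and female 2 the lowest, with a range of 1.08. At the stricter bar of the 99th percentile of olfactory receptors, Myod1 was above it on 3 of 4 arrays, and female 2 fell short.

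Myog was at 2.81, 2.50, 3.11 and 2.43 in male 1, male 2, female 1 and female 2. All were above the array medians, by 0.15 to 0.84, but only female 1 was above the olfactory reference. Myf6 was at 7.73, 6.06, 6.61 and 4.62, which is 2.34 to 5.42 above the array medians. Male 1 was highest and female 2 lowest, and the range of 3.11 was the widest of the 7 members. Mef2c was at 8.03, 8.72, 8.96 and 8.46. Its values exceeded the array medians by 5.73 to 6.69, and 98.3% to 99.1% of all rows had a lower value. The second Mef2c probe set was at 7.86, 8.13, 8.25 and 8.19, also far above both references.

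**Figure D1:**
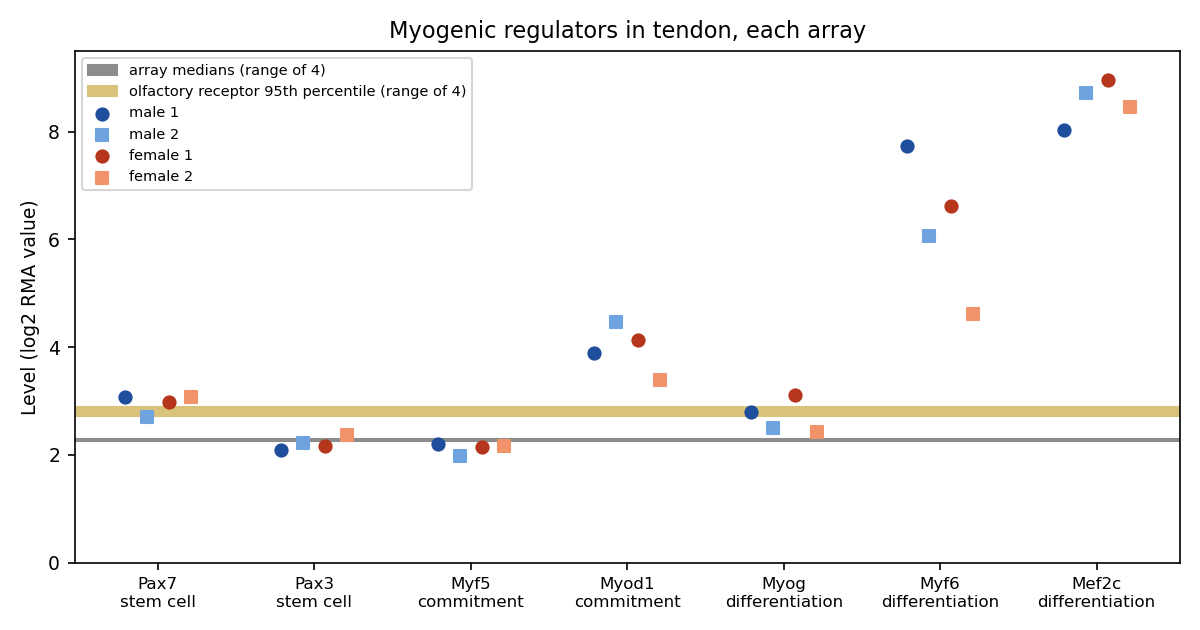
Level (log2 RMA value) of each of the 7 genes on each of the 4 arrays, 1 point per array, grouped by role. Grey and yellow bands give the range over arrays of the array medians (2.27 to 2.30) and of the olfactory receptor 95th percentile (2.71 to 2.90). Mef2c, Myf6 and Myod1 lie above both bands on all arrays, while Pax3 and Myf5 lie near or below the grey band.

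The study set out to describe normal expression in the 2 sexes, so each member was compared between females and males. No member passed the threshold: limma called 0 of 7 at an adjusted p under 0.05, over a background of 0% of all 23521 probe sets, and 0 of 7 had an unadjusted p under 0.05 (1056 probe sets did). For none of the 7 were both arrays of a sex above both of the other, a pattern that 15.8% of probe sets showed with females higher and 17.5% with males higher. The median difference of the members was 0.12 (log2, female minus male), beside -0.0062 over all probe sets. Adjusted p-values of the 7 ran from 0.969 to 0.987, which does not show that the sexes were equal. The same fit did not call the sex-linked genes either. Xist differed by 5.47 (SE 0.32, limma adjusted p = 0.772) and Eif2s3y by -2.45 (SE 0.46, limma adjusted p = 0.969). A count of 0 called, here and in the lists below, therefore says little about smaller differences.

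Myf6 had the widest difference between the means and the widest interval. The male mean was 6.89 ± 1.18 (SD, n = 2) and the female mean 5.61 ± 1.41 (SD, n = 2), a difference of -1.28 (SE 0.89, 95% interval -3.65 to 1.09, limma adjusted p = 0.969). The arrays of the sexes overlapped, since female 1 was above male 2. Leaving out female 2 gave -0.28 and leaving out female 1 gave -2.28, so this value rests on single arrays. Without male 1 it was -0.45 and without male 2 it was -2.11.

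For Myod1 the male mean of 4.18 ± 0.41 (SD, n = 2) stood against a female mean of 3.76 ± 0.52 (SD, n = 2). The difference was -0.42 (SE 0.34, interval -1.34 to 0.50). Mef2c had a male mean of 8.38 ± 0.48 (SD, n = 2) and a female mean of 8.71 ± 0.35 (SD, n = 2), a difference of 0.33 (SE 0.32, interval -0.52 to 1.18). Its second probe set differed by 0.22 (SE 0.17), with both female arrays above both male arrays by a narrow margin, and was not called either (adjusted p = 0.969).

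The remaining 4 members differed by small amounts in the direction of females. Pax7 differed by 0.14 (SE 0.19, interval -0.37 to 0.66) and Myog by 0.12 (SE 0.29, interval -0.66 to 0.89). Pax3 and Myf5 were near the array medians in both sexes, and no difference is read from their 0.12 (SE 0.16) and 0.06 (SE 0.16). The intervals of these 4 genes reached at most 0.89 in size.

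**Figure D2:**
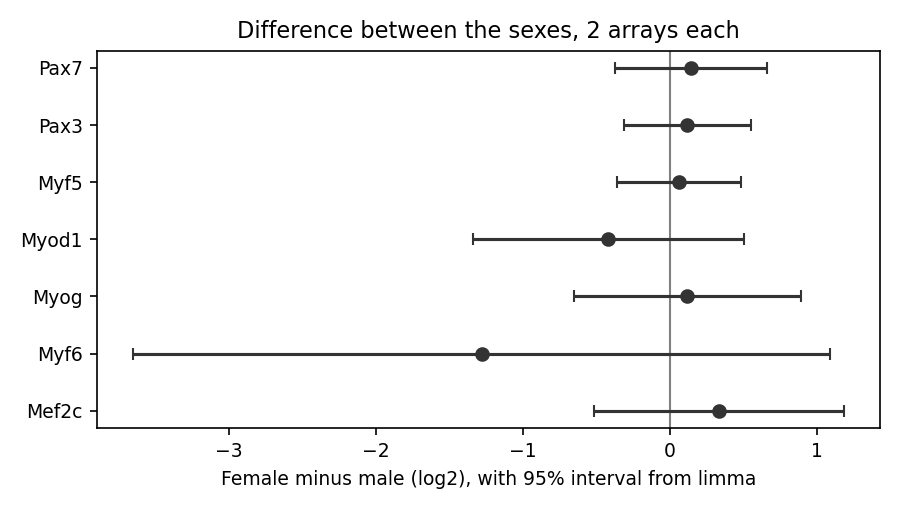
Difference between the sexes (female minus male, log2) for the 7 genes, with the 95% interval from limma as bars and 2 arrays a sex. All 7 intervals include 0, and that of Myf6 (-3.65 to 1.09) is the widest.

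The spread of Myf6 between arrays was then set beside adult myofibre genes, which encode the contractile and metabolic proteins of muscle fibres. All 29 of them were above the array's median on every array, with a list median of 9.65, 9.60, 9.74 and 9.14 in male 1, male 2, female 1 and female 2. Signal of muscle fibre genes was thus high in the samples of both sexes. In female 2, Myf6 was at -2.18 from the mean of the other 3 arrays, and 21 of 29 myofibre genes had their lowest value there, against 25.9% of all probe sets. Myh4 was at -3.07 in that array, Actn3, the actinin of fast fibres, at -3.02, and Mybpc2, the fast myosin-binding protein gene, at -2.92. As sex differences these genes stood at -1.76 (SE 0.97), -1.79 (SE 0.94) and -1.96 (SE 0.86), and none was called. These 3 had the widest sex differences of the list, and the rest of it moved less in female 2. Pygm was at -1.79 there, but the fast fibre genes Tnni2, Tnnt3, Myh1 and Myh2 were at -0.34, -0.21, -0.0063 and 0.0061. The skeletal actin gene Acta1 was at -0.12, and the slow myosin gene Myh7 was 0.37 above the other arrays.

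The creatine kinase gene Ckm was at 10.52, 10.29, 10.35 and 9.72, also lowest in female 2. In male 1 Myf6 was 1.96 above the mean of the other arrays. Of the myofibre genes 11 of 29 had their highest value there, against 28.1% of all probe sets, and 6 their lowest, while 15 of 29 were highest in female 1. The median deviation of the list was 0.12 in male 1 and 0.34 in female 1, so the list as a whole did not follow Myf6 there. Of the 3 fast fibre genes with the widest sex differences, Mybpc2 was 1.77, Actn3 1.42 and Myh4 1.28 above the other arrays in male 1, while Myh7 was at -1.63. Other fast fibre genes differed from these: Tnni2 was at 0.22 and Tnnt3 at 0.15, but Myh1 at -0.10 and Myh2 at -0.43. In male 2 Myf6 was at -0.25, whereas Actn3, Myh4 and Mybpc2 were 0.97, 1.07 and 0.84 above the other arrays. The order of the arrays for Myf6, with male 1 highest, then female 1, male 2 and female 2, was shared by 4 of 29 myofibre genes and by 4.83% of all probe sets. Myod1 was also lowest in female 2, at -0.77, but highest in male 2. Mef2c was lowest in male 1, at -0.68, and at -0.11 in female 2. The part that the fibre content of each sample had in these values was not tested.

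**Figure D3:**
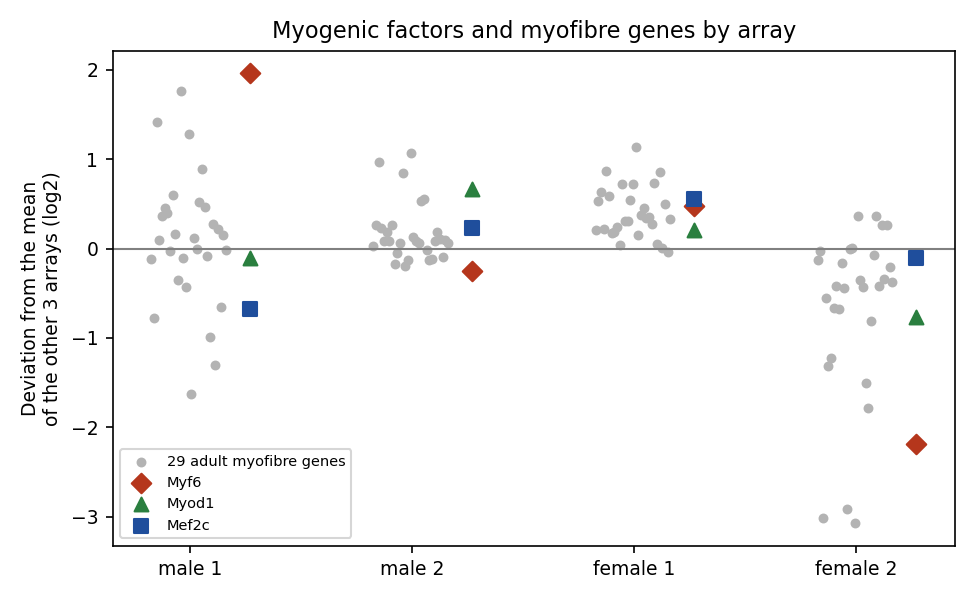
Deviation of each array from the mean of the other 3 (log2) for Myf6, Myod1, Mef2c and, in grey, 29 adult myofibre genes. In female 2 Myf6 is at -2.18, with Myh4, Actn3 and Mybpc2 lower still, and most other myofibre genes lie nearer to 0.

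Likeness of pattern was measured for Myf6 and Myod1, the members above every array's median with a range of at least 1. The measure was the root mean square difference between centred values over the 4 arrays, among 11161 probe sets above every array's median. For Myf6 the nearest were Syne1 (0.28), Myoz3 (0.31) and Cxcl14 (0.33). Myoz3 was at 5.74, 4.58, 5.10 and 3.51 in male 1, male 2, female 1 and female 2, and so followed the order of Myf6 over a narrower range. For Myod1 the nearest were Rbis (0.042), Gm14403 (0.043) and Emc9 (0.053). With 4 arrays these distances are a description.

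The other genes of the pathway were grouped by role. For satellite cells, 10 of 15 markers were above the array's median on every array and 6 were above the olfactory reference on every array. Among the 4 defining markers, the cadherin gene Cdh15 was at 3.18, 3.55, 3.20 and 3.15 in male 1, male 2, female 1 and female 2, above both references throughout. Chrdl2 was above the medians but below the olfactory reference on all arrays, Megf10 was above the median on 2 of 4 arrays, and the calcitonin receptor gene Calcr, at 2.16 to 2.26, on none. Sdc4 and Sdc3, syndecan genes that other cells express too, were above the olfactory reference on every array. Limma called 0 of 15 in either direction, with a median difference of -0.01. The widest differences among those above the medians were Sdc3 at 0.99 (SE 0.51), Met at 0.50 (SE 0.20) and Hey1 at -0.26 (SE 0.31).

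Of 9 regulators upstream of the myogenic factors, 6 were above every array's median. The Eya proteins are transcriptional cofactors in muscle precursors. Eya1 was at 5.67, 4.63, 4.64 and 3.97 in male 1, male 2, female 1 and female 2, so that male 1 was highest and female 2 lowest as for Myf6, and its difference was -0.84 (SE 0.44). Male 1 was the highest array for 28.1% of all probe sets and female 2 the lowest for 25.9%. Eya4 was at 4.37 in both males, 4.17 in female 1 and 3.56 in female 2, a difference of -0.51 (SE 0.25). Meox2, a homeobox gene of limb muscle precursors, differed by 0.38 (SE 0.35). None of the 9 was called by limma, and the median difference was 0.05.

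Of E proteins, the inhibitors that compete for them and related repressors, 13 of 16 genes were above every array's median. The E protein genes Tcf12 and Tcf4 were at 5.00 to 5.50 and 4.44 to 5.58, above both references on all arrays, and Tcf3 was at 2.86 to 3.76. Tcf4 was lower in both male arrays than in both female arrays, with a difference of 0.72 (SE 0.30). Twist1, a repressor of Myod1 activity, was at 4.89 and 4.53 in the males and 5.35 and 5.62 in the females, a difference of 0.78 (SE 0.21, limma adjusted p = 0.969). Bhlhe41, which also represses Myod1, was at 6.78 and 6.36 against 5.99 and 5.69, a difference of -0.73 (SE 0.22). The Id genes encode inhibitors that bind E proteins. Id2 was at 5.33 in female 2 and between 3.22 and 4.05 elsewhere, a difference of 0.73 (SE 0.72). Of the 16 genes 3 had both female arrays above both males and 4 the reverse, near the 15.8% and 17.5% of all probe sets, none was called, and the median difference was -0.06.

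Mef2c belongs to a family of which Mef2a and Mef2d were also above both references on every array (Mef2b was not analysed here). Mef2a was at 6.55, 6.12, 6.27 and 6.72 in male 1, male 2, female 1 and female 2, and Mef2d at 7.21, 7.46, 7.50 and 6.85. Their differences of 0.16 (SE 0.25) and -0.16 (SE 0.27) were within the spread between arrays. With cofactors and repressors included, 10 of 10 measured genes were above every array's median. Vgll2, a skeletal muscle cofactor, was at 4.98, 6.54, 7.36 and 6.31, and so lowest in male 1 and highest in female 1 as Mef2c was. Its difference was 1.07 (SE 0.65). Male 1 was the lowest array for 26.6% of all probe sets and female 1 the highest for 23.8%. The repressor genes Hdac9 and Hdac5 differed by 0.64 (SE 0.34) and 0.58 (SE 0.38). Hdac9 was at 2.60, 2.30, 3.52 and 2.65 in the same order of arrays, above the olfactory reference in female 1 only. Limma called 0 of 10, and the median difference was 0.11.

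The targets of differentiation divided by gene. The fusion gene Mymk was below the median on every array, at 1.65 to 1.90, and Mymx was at 2.31 to 2.52, above the medians but below the olfactory reference. Chrng, the fetal subunit of the acetylcholine receptor, was at 2.13 to 2.83 and above the median on 3 of 4 arrays. By contrast, the embryonic myosin gene Myh3 was at 4.09, 4.92, 5.84 and 4.63 in male 1, male 2, female 1 and female 2, above both references throughout, with a difference of 0.73 (SE 0.51). Myosin heavy chain genes are similar in sequence, so signal of other myosins in this probe set was not tested. Ncam1, an adhesion gene of regenerating and denervated fibres and of nerve, differed by 0.97 (SE 0.38), and Smyd1, a methyltransferase gene of muscle, by -0.69 (SE 0.52). In all, 11 of 16 measured genes were above every array's median, none was called, and the median difference was 0.01 (Mybph was not analysed here).

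**Figure D4:**
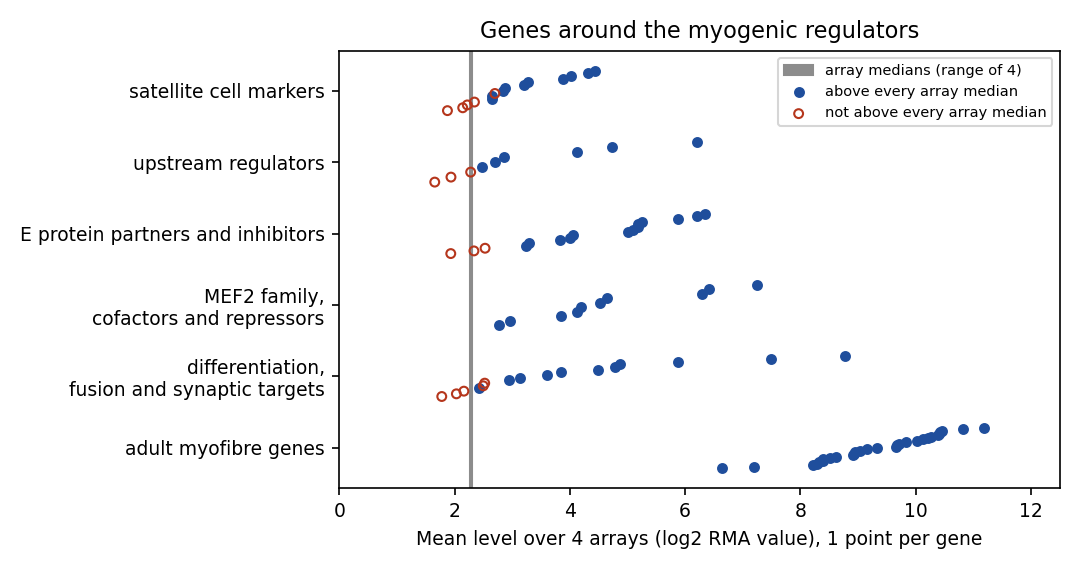
Mean level over the 4 arrays (log2 RMA value) of each gene in 6 lists around the myogenic regulators, 1 point per gene. Filled points are genes above the array's median on all 4 arrays, and the grey band is the range of the array medians. All 29 adult myofibre genes and all 10 measured genes of the MEF2 list are filled, against 10 of 15 satellite cell markers.

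Because Mef2c is expressed in several cell types, markers of those types are given beside it. Endothelial markers were above every array's median in 15 of 15 genes, with a list median of 3.37, 3.79, 3.67 and 4.01 in male 1, male 2, female 1 and female 2. Of their defining genes, Emcn was at 2.32 in male 1 and 4.70 to 5.12 elsewhere, Cdh5 at 5.49 in male 1 and 6.27 to 6.52 elsewhere, and Pecam1 at 5.37 to 5.77. Male 1 was the lowest array for 11 of the 15 markers and for Mef2c, as for 26.6% of all probe sets, and it was the highest for 2 of the markers. Of the myofibre genes, 6 of 29 were lowest in male 1, a smaller share than over all probe sets. Female 2 was the lowest array for 21 of them. The adipocyte list median (4.04) was also lowest in male 1. Actn2 was 1 of the 6 myofibre genes lowest in male 1, and was chosen after its values were seen. It deviated by -0.77, 0.27, 0.53 and -0.02 from the other arrays in male 1, male 2, female 1 and female 2. Mef2c deviated by -0.68, 0.23, 0.55 and -0.11. Pericyte and smooth muscle markers were above every median in 9 of 10 genes, with Rgs5 at 8.30 to 8.75 and Myh11 at 3.52 to 3.94. Macrophage markers were so in 11 of 14, with a list median of 3.29 to 3.36 on 3 arrays and 4.50 in female 2, where Adgre1 was at 4.56 and Csf1r at 5.16. Fewer were above the olfactory reference on every array: 11 of 15 endothelial, 8 of 10 pericyte and 7 of 14 macrophage markers. The widest differences were those of Emcn at 1.45 (SE 0.82), Flt1 at 1.08 (SE 0.50) and Cldn5 at -0.87 (SE 0.30) among endothelial markers. Among macrophage markers they were those of Cd68 at 1.18 (SE 0.63), C1qa at 1.09 (SE 0.52) and C1qb at 1.05 (SE 0.37). Cd68 was at 6.78 in female 2 and 4.62 to 4.97 elsewhere. Among pericyte markers the widest were Higd1b at -0.62 (SE 0.21), Pdgfrb at -0.54 (SE 0.30) and Mcam at 0.49 (SE 0.15). The share of each cell type in the Mef2c signal was not tested.

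Of the lists for other sources of Pax3 and Mef2c, lymphocyte markers were above every median in 0 of 7 measured genes, with Cd3e at 1.76 to 2.25 and Cd79a at 2.03 to 2.40. Schwann cell and melanocyte markers were so in 4 of 10, with Sox10 at 2.24 to 2.73 and Dct at 2.24 to 2.47. Cartilage and bone markers reached that level in 8 of 9 genes, though Col2a1 was at 2.76 to 2.91 and Bglap at 2.29 to 3.26. The tissue itself was represented by 8 of 10 tenocyte markers above every median. Tnmd was at 4.39 to 5.06, Scx at 3.18 to 3.58 and Mkx at 2.26 to 3.09, the last below the median in female 1. Adipocyte markers were above every median in 7 of 8 genes, with a list median of 4.04 in male 1 and 4.96 to 5.50 elsewhere. Plin1 was at 4.81 to 5.30, and Adipoq at 4.62 in male 1 and 5.78 to 6.67 elsewhere. The olfactory reference was exceeded on every array by 3 of 9 cartilage and bone and 3 of 10 Schwann cell and melanocyte markers. It was exceeded by 8 of 10 tenocyte, 6 of 8 adipocyte and 0 of 7 lymphocyte markers. The widest differences in these lists were Plin4 at 1.59 (SE 0.28), Cidec at 1.57 (SE 0.55) and Pparg at 1.43 (SE 0.37) for adipocytes. For tenocytes they were Kera at 0.59 (SE 0.21), Thbs4 at 0.51 (SE 0.34) and Comp at 0.50 (SE 0.79). For cartilage and bone they were Ibsp at 0.83 (SE 0.78), Bglap at -0.62 (SE 0.23) and Acan at 0.43 (SE 0.41). Ibsp was at 7.55 in female 2 and 5.33 to 5.88 elsewhere. For Schwann cells and melanocytes they were S100b at 0.69 (SE 0.72), Mitf at 0.49 (SE 0.49) and Pmp22 at 0.46 (SE 0.35). Limma called no gene of these lists, nor of the myofibre list. Median differences were 0.17 for endothelial, -0.08 for pericyte, 0.45 for macrophage, -0.10 for lymphocyte, 0.19 for Schwann cell and melanocyte, 0.13 for cartilage and bone and 0.74 for adipocyte markers. They were 0.02 for tenocyte markers and -0.18 for myofibre genes.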

How the data were processed

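Gene expression was measured on 4 Mouse Gene ST 2.1 arrays, after amplification of cDNA from 12.5 ng of total RNA, per the labels' protocols. The deposited values are log2 expression values, 1 column per array. Per the submitters' processing notes the authors used oligo and RMA; versions, summary level and annotation build are not given in the sources used here, and the range of the values places them on that scale. The table has 41345 rows: 23521 probe sets with 1 symbol were tested, and 1814 with several and 16010 with none were left unnamed.

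Differences are female minus male. limma 3.58.1 (R 4.3.3; lmFit, eBayes) was fitted to all 23521 probe sets with sex as the only term, with Benjamini-Hochberg adjustment over all of them and a threshold of 0.05. With 2 arrays against 2 an exact permutation test cannot go below p = 0.333, and the number of arrays limits the precision (median SE 0.19). A gene was represented by its probe set of highest mean. Named were the members, the defining genes of 14 lists and fixed further genes. Per list, the 3 widest differences among genes above every array's median were added. Sdc4 and Actn2 were chosen after their values were seen. Pygm, Tnni2, Tnnt3, Myh1 and Myh2 were also named outside this rule. Members and lists were chosen with earlier results of these data known. The test was tried on simulated data. Alternatives were a replicate block, quantile normalization once more, median centring, a trended prior, array weights, filters on probe sets, all rows, the mean over probe sets, an adjusted p of 0.1, other reference levels and each array left out.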

Additional observations from a re-analysis of the deposited data

How the results depend on the processing

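Limma called 0 of 7 members and 0 probe sets under every alternative run, including an adjusted p of 0.1. The mean of Myf6 and of Myod1 was lower in females, and that of Pax3 higher, under every alternative that gave them a value. Without female 2, however, Myod1 was at -0.054 and Pax3 at 0.017, both near 0. Their ranges were -0.79 to -0.054 and 0.017 to 0.22, and that of Myf6 was -2.28 to -0.28. The filter on dim probe sets left Pax3 and Myf5 without a value. Signs turned only when an array was left out: Mef2c ranged from -0.0091 (without male 1) to 0.68, Myf5 from -0.045 (without male 2) to 0.17, and Pax7 from -0.048 (without male 2) to 0.34. Myog ranged from -0.23 (without female 1) to 0.46 and was at -0.038 without male 2. Members whose groups did not overlap numbered 2 without female 2, 3 without male 1, 4 without female 1 and 5 without male 2, rather than 0, where 64.5% to 69.0% of all probe sets did not overlap. Against the 75th percentile of each array, 2 members (Myf6 and Mef2c) were above the reference on all arrays rather than 5, and 4 were against the median of probe sets with 1 symbol. With the 99th percentile of olfactory receptors 2 were above it rather than 3, and without male 2 Pax7 joined the 3. With the replicate number as a block Myf6 was at -1.28 (SE 0.18, adjusted p = 0.993, where its alternatives ran from 0.812 to 0.999) and 0 members were called; the deviations of same-numbered arrays correlated at -0.06 over probe sets, and nothing in the labels pairs them. When 1 array was dropped, the spread came from the sex that still had a pair, and the single remaining array was taken to share it. Signal near the array medians limits what Pax3, Myf5, Myog and Pax7 can show.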
